A study of Mus musculus with 6 samples.

Results

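The 10 miRNAs described here are long-standing markers of brain and neurons: mmu-miR-9-5p, mmu-miR-9-3p, mmu-miR-124-3p, mmu-miR-128-3p, mmu-miR-137-3p, mmu-miR-138-5p, mmu-miR-153-3p, mmu-miR-218-5p, mmu-miR-132-3p and mmu-miR-212-3p, written below without the species prefix. The rule that picks them goes by name and uses no measured value, though earlier results of these data were known when it was made, and all 10 were present among the 685 mature miRNAs listed in each library. The RSL3 group was N2a cells kept for 96 h with 10 µM retinoic acid and given 5 µM RSL3 for 24 h. The DMSO group had the same retinoic acid treatment and the solvent at matched concentration. Each group had 3 small RNA libraries. N2a is a mouse neuroblastoma line that extends neurites in retinoic acid, and RSL3 inhibits GPX4, the enzyme that reduces lipid peroxides, and so starts the iron-dependent death called ferroptosis. All 6 libraries came from retinoic acid-treated cells of this established tumour line, so the levels below cannot be set against undifferentiated cells. How many cells were differentiated, or how far ferroptosis had gone, is not part of the miRNA values.

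A miRNA is cut from a hairpin whose stem yields a 5p and a 3p arm, and the loaded arm pairs with mRNAs mainly through its seed, bases 2 to 8. In the nervous system miR-124 represses Ptbp1, a splicing factor that holds cells in a non-neuronal state, and miR-9 represses Rest, the repressor of neuronal genes. The primary transcript of miR-132 and miR-212 is induced by CREB when neurons are active.

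The mature sequences show which of these miRNAs can share targets, with the seed in capitals. RefSeq (GRCm38.p6) gave a sequence for 9 of the 10.
miR-9-5p: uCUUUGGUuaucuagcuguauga
miR-9-3p: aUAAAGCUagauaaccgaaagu
miR-128-3p: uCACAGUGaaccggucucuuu
miR-137-3p: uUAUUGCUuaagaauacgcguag
miR-138-5p: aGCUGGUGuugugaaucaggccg
miR-153-3p: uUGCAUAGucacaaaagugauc
miR-218-5p: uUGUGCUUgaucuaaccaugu
miR-132-3p: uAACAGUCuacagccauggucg
miR-212-3p: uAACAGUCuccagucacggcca

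These 9 carried 8 different seeds. Only miR-132-3p and miR-212-3p shared theirs, AACAGUC. They were the same over their first 9 bases and at 17 of 22 positions in all. Among the 554 listed entries with a mature sequence, no other entry had the same bases 2 to 8 as any of the 9. The seed letters of miR-128-3p, CACAGUG, also stood at bases 3 to 9 of miR-27a-3p and miR-27b-3p, shifted by a base, as the capitals show.
miR-27a-3p: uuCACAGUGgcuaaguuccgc
miR-27b-3p: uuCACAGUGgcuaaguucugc

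The 9 miRNAs came from 13 hairpins in GRCm38.p6, and the mature reads cannot say which hairpin of a set they came from. The host genes below are those of the GENCODE annotation on the same strand. For miR-9 there were 3 loci: Mir9-1 in an intron of Gm3764 (chromosome 3, 88215598 to 88215686, plus strand), Mir9-2 in an exon of C130071C03Rik (chromosome 13, 83738814 to 83738885, plus strand) and Mir9-3 in an intron of Mir9-3hg (chromosome 7, 79505264 to 79505353, plus strand). All 3 hosts are long non-coding RNAs. The miR-128 hairpins lay in introns of R3hdm1 (chromosome 1, 128202361 to 128202430, plus strand) and Arpp21 (chromosome 9, 112118636 to 112118711, minus strand). The miR-218 hairpins lay in introns of the axon guidance genes Slit2 (chromosome 5, 48223942 to 48224051, plus strand) and Slit3 (chromosome 11, 35616816 to 35616925, plus strand). The miR-153 hairpin lay in an intron of Ptprn2, a gene of dense-core vesicles (chromosome 12, 117250817 to 117250885, plus strand). The hairpins of miR-137 (chromosome 3, 118433857 to 118433929) and of miR-138 (chromosome 9, 122682876 to 122682974, and chromosome 8, 94324311 to 94324381) were on the plus strand in exons of non-coding transcripts. Mir212 (chromosome 11, 75173388 to 75173478) and Mir132 (chromosome 11, 75173682 to 75173747) were 203 bases apart on the plus strand, in an intron of 1700016P03Rik.

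The libraries held 3406276 to 4989380 recovered miRNA reads in the RSL3 group and 4306460 to 6058006 in the DMSO group. Values are the authors' CPM, read counts divided by the library total and a TMM factor, and sum to 949375 to 1068892 per library. Pairs of libraries within a group stood further apart than counting alone allows (chi-square over its degrees of freedom, 73.0 to 257). Nothing in the labels ties the replicates to separate cultures. The p-values below therefore reflect the spread of these libraries only, and that spread may be technical. Small RNA libraries favour some sequences at ligation, so levels of different miRNAs are compared only in broad terms.

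All 10 neuronal miRNAs were detected in every library, and miR-218-5p was by far the highest. Mean levels ran from 26.4 to 15095 CPM in RSL3 libraries and from 24.1 to 18269 CPM in DMSO libraries. By mean level among the 685 entries, miR-218-5p ranked 12 in RSL3 and 11 in DMSO libraries. The rank of miR-9-5p was 31 in RSL3 and 35 in DMSO libraries, and that of miR-128-3p 53 in RSL3 and 51 in DMSO libraries. By contrast miR-124-3p, the dominant miRNA of many mature neurons, ranked 176 in RSL3 and 193 in DMSO libraries. At the low end, miR-153-3p ranked 328 in RSL3 and 342 in DMSO libraries.

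The order of the 10 by mean level was the same in both groups: miR-218-5p, miR-9-5p, miR-128-3p, miR-132-3p, miR-124-3p, miR-9-3p, miR-138-5p, miR-137-3p, miR-212-3p and miR-153-3p. Neighbours in that order had ranges that did not overlap, except miR-124-3p and miR-9-3p in both groups and miR-138-5p and miR-137-3p in DMSO libraries. Within a library, miR-124-3p was above miR-9-3p in 3 of 3 RSL3 and 3 of 3 DMSO libraries.

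**Figure D1:**
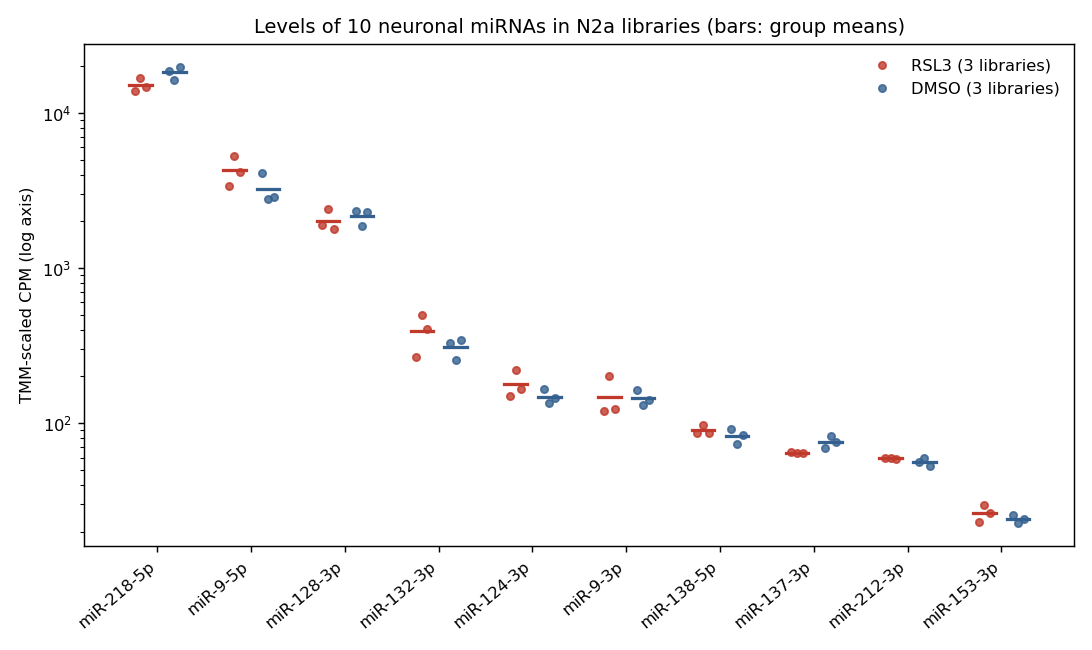
Levels of the 10 neuronal miRNAs (TMM-scaled CPM, log axis), with RSL3 libraries in red left of DMSO libraries in blue; points are libraries and bars are group means. The order of means is the same in both groups, and only miR-137-3p has RSL3 libraries that all lie below the DMSO libraries.

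Together the 10 made up 2.00% to 2.73% of a library's summed CPM. Their summed level was 19938, 25551 and 21500 CPM in RSL3 libraries 1 to 3 and 25929, 21780 and 25812 CPM in DMSO libraries 1 to 3. The groups overlapped. As miR-218-5p made up 65.4% to 76.7% of this sum, the sum of the other 9 is given apart: 6019, 8837 and 6850 CPM in RSL3 libraries and 7296, 5394 and 6023 CPM in DMSO libraries. These ranges overlapped too, with RSL3 library 2 the highest of the 6.

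After RSL3, 0 of the 10 neuronal miRNAs passed the limma test at an adjusted p of 0.05, on log2(CPM + 1) with Benjamini-Hochberg adjustment over 666 tested miRNAs. Of all tested miRNAs 0.751% passed. edgeR and DESeq2 on the recovered reads likewise called 0 of the 10, against 0.901% of all tested in edgeR and 6.01% in DESeq2 (2.85% higher and 3.15% lower). The DESeq2 share counts as not called the 284 of 666 miRNAs given no adjusted p, whereas all 10 neuronal miRNAs had one. At an unadjusted p under 0.05 there was 1 of 10 in limma and in edgeR (miR-9-5p) and 2 in DESeq2 (miR-9-5p and miR-218-5p), while 17.3% of all tested miRNAs reached it in limma (8.86% higher and 8.41% lower), 17% in edgeR and 14.3% in DESeq2. The groups did not overlap in 1 of the 10 (miR-137-3p, lower), against 24.3% of all tested (12.3% higher and 12% lower). Log2 fold changes were positive in 6 and negative in 4, with a median of 0.10, against 0.0013 over all tested miRNAs, and ranged from -0.28 to 0.39. The median was 0.05 without RSL3 library 2, 0.06 without DMSO library 2, and 0.05 after rescaling without the 5 most abundant miRNAs. Over all tested miRNAs the medians of these fits were -0.0090, -0.0087 and -0.048, so the rescaling lowered both. In these bulk libraries, fewer cells of a type and less miRNA per cell cannot be told apart.

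**Figure D2:**
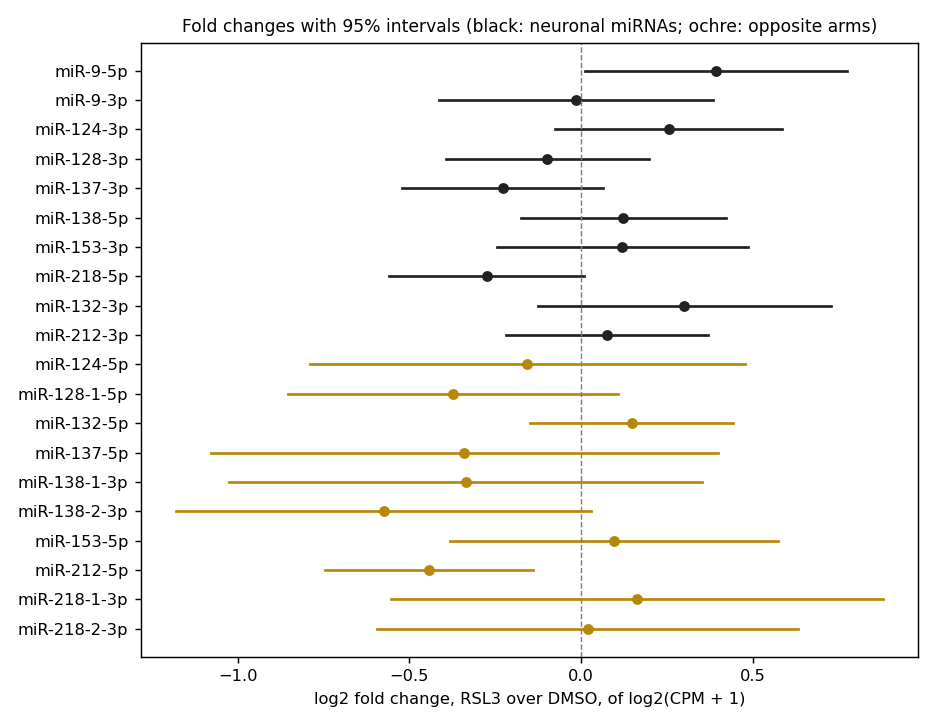
Log2 fold change of RSL3 over DMSO libraries on the log2(CPM + 1) scale for the 10 neuronal miRNAs (black) and the opposite arms of their hairpins (ochre), with limma's 95% intervals that are not adjusted for the number of tests (3 libraries per group). The intervals of miR-9-5p and miR-212-5p do not include 0, and those of the other 18 miRNAs do.

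The miRNAs tied to neuronal fate come first. The guide arm miR-9-5p had 3365, 5278 and 4134 CPM in RSL3 libraries 1 to 3, against 4073, 2781 and 2865 CPM in DMSO libraries 1 to 3. The groups overlapped, because DMSO library 1 lay above RSL3 library 1, and RSL3 library 2 was the highest. The mean was 4259 ± 962 CPM in RSL3 and 3240 ± 723 CPM in DMSO libraries (SD, n = 3 each), a log2 fold change of 0.39 ± 0.18 (SE; limma adjusted p = 0.27). Its 95% interval, 1.01-fold to 1.71-fold, stood just off no change before adjustment. It was 0.23 without RSL3 library 2 and 0.57 without DMSO library 1.

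The other arm, miR-9-3p, which is also active in neural cells, had 119, 201 and 123 CPM in RSL3 libraries, against 163, 131 and 141 CPM in DMSO libraries. Here RSL3 libraries 1 and 3 were the lowest of the 6 and RSL3 library 2 the highest. Its log2 fold change was -0.02 ± 0.18 (SE; limma adjusted p = 0.98), with a sign that turned in 7 of 17 alternatives. Without RSL3 library 2 it was -0.26 (adjusted p = 0.39).

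For miR-124-3p the values were 150, 221 and 166 CPM in RSL3 libraries, against 165, 135 and 145 CPM in DMSO libraries. RSL3 library 2 stood above the rest, and the other 5 libraries overlapped. Its log2 fold change was 0.25 ± 0.15 (SE; limma adjusted p = 0.40), with a 95% interval of -0.08 to 0.59, and it was 0.09 without RSL3 library 2.

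A regulator of neuronal excitability, miR-128-3p had 1884, 2386 and 1787 CPM in RSL3 libraries, against 2321, 1855 and 2291 CPM in DMSO libraries. Both groups held a library near the top and one or more near the bottom of the range. The log2 fold change was -0.10 ± 0.14 (SE; limma adjusted p = 0.73), with an interval of 0.76-fold to 1.15-fold. It ran from -0.23 to -0.02 as libraries were left out in turn, the first of these without RSL3 library 2. Its seed relatives by shift, chosen after the sequences were compared, were at 36291 ± 4810 CPM in RSL3 and 34788 ± 1746 CPM in DMSO libraries for miR-27b-3p. For miR-27a-3p the means were 1635 ± 473 CPM in RSL3 and 1392 ± 129 CPM in DMSO libraries. Neither passed (limma adjusted p of 0.86 for miR-27b-3p and 0.60 for miR-27a-3p).

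The most abundant of the 10, miR-218-5p, is enriched in mouse motor neurons. It had 13919, 16715 and 14650 CPM in RSL3 libraries, against 18633, 16385 and 19789 CPM in DMSO libraries. Only RSL3 library 2 and DMSO library 2 broke a separation of the groups. The mean was 15095 ± 1450 CPM in RSL3 and 18269 ± 1731 CPM in DMSO libraries (SD, n = 3 each), a log2 fold change of -0.28 ± 0.13 (SE; limma adjusted p = 0.30). Without RSL3 library 2 it was -0.35 and without DMSO library 2 it was -0.35, with adjusted p-values of 0.23 and 0.33. Quantile normalization gave -0.08 (adjusted p = 0.76).

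Among the miRNAs of dendrites and synapses, miR-137-3p, which acts on dendrite growth, was the one of the 10 whose groups did not overlap. It had 64.8, 64.3 and 64.0 CPM in RSL3 libraries, against 69.3, 82.3 and 75.8 CPM in DMSO libraries. The log2 fold change was -0.23 ± 0.14 (SE; limma adjusted p = 0.40), an interval of 0.70-fold to 1.04-fold. Its RSL3 libraries spread by 0.65% of their mean, less than the counting error of 6.98% at its lowest read number of 205, so that closeness is finer than the depth can resolve.

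A regulator of dendritic spine size in rat neurons, miR-138-5p, had 86.2, 97.0 and 86.6 CPM in RSL3 libraries, against 91.4, 73.5 and 83.3 CPM in DMSO libraries. RSL3 library 2 was again the highest and DMSO library 2 the lowest, and the rest overlapped. Between the groups the log2 fold change was 0.12 ± 0.14 (SE; limma adjusted p = 0.67), and it ran from 0.04 to 0.20 as libraries were left out in turn.

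For miR-153-3p, whose targets include synaptic vesicle genes, the values were 23.1, 29.8 and 26.3 CPM in RSL3 libraries, against 25.7, 22.6 and 24.0 CPM in DMSO libraries. Those values rested on 91 to 164 reads per library, a counting error of up to 10.5%. Its log2 fold change was 0.12 ± 0.17 (SE; limma adjusted p = 0.73), with a range of 0.03 to 0.21 as libraries were left out.

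The activity-induced pair differed in spread. For miR-132-3p, which promotes dendrite growth, the values were 267, 501 and 404 CPM in RSL3 libraries, against 330, 254 and 345 CPM in DMSO libraries. RSL3 libraries 2 and 3 lay above all DMSO libraries and RSL3 library 1 among them. The mean was 391 ± 118 CPM in RSL3 and 310 ± 48.6 CPM in DMSO libraries (SD, n = 3 each), a log2 fold change of 0.30 ± 0.20 (SE; limma adjusted p = 0.44). It was 0.55 without RSL3 library 1 (adjusted p = 0.071, the smallest reached by any of the 10 in any setting), 0.10 without RSL3 library 2 and 0.17 without DMSO library 2.

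Its seed partner miR-212-3p had 59.7, 59.9 and 59.0 CPM in RSL3 libraries, against 56.6, 59.7 and 53.3 CPM in DMSO libraries. All 6 libraries lay within a narrow band, and the groups overlapped. The spread was 0.87% of the mean in RSL3 and 5.63% in DMSO libraries. The counting error was 7.24% at the lowest read number of 191, so the closeness of the RSL3 libraries is finer than the depth can resolve. The log2 fold change of miR-212-3p was 0.07 ± 0.14 (SE; limma adjusted p = 0.81), an interval of 0.86-fold to 1.29-fold. It was 0.11 without DMSO library 2, 0.03 without DMSO library 3 and 0.02 after rescaling without the 5 most abundant miRNAs. The ratio of miR-132-3p to miR-212-3p was 4.47, 8.36 and 6.86 in RSL3 libraries, against 5.83, 4.26 and 6.46 in DMSO libraries. The difference in mean log2 ratio was 0.23 (two-sided exact permutation p = 0.5, where 3 against 3 libraries allow none below 0.1). It was 0.48 without RSL3 library 1, 0.35 without DMSO library 3, 0.03 without RSL3 library 2 and 0.05 without DMSO library 2.

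RSL3 library 2 was the highest of the 6 libraries for 8 of the 10 neuronal miRNAs, all but miR-137-3p and miR-218-5p. Of all tested miRNAs 26.1% were highest in that library. DMSO library 2 was the lowest for 5 of the 10, against 17.4% of all tested. Centred on each miRNA's own mean, the median of the 10 was 0.22 in RSL3 library 2, against -0.12 in RSL3 library 1 and 0.02 in RSL3 library 3. It was 0.06, -0.15 and -0.04 in DMSO libraries 1 to 3. Over all tested miRNAs these medians lay between -0.03 and 0.03. RSL3 library 2 also had the fewest reads, 3406276, and the smallest TMM factor, 0.936. The part of these in the result was not tested.

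**Figure D3:**
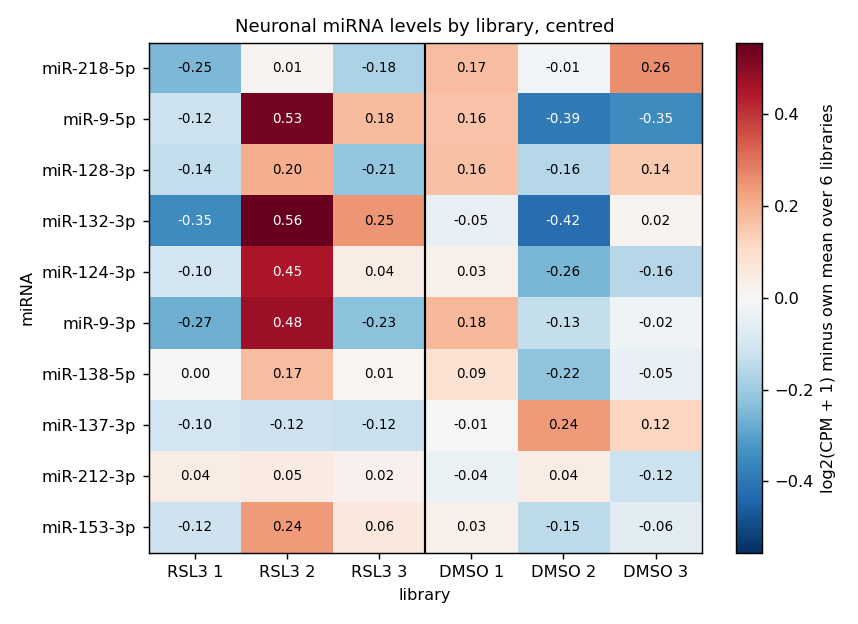
Level of each neuronal miRNA (rows) in each library (columns, RSL3 left of DMSO), as log2(CPM + 1) minus the miRNA's own mean over the 6 libraries; red is above and blue below that mean. RSL3 library 2 is above the mean for 9 of the 10 miRNAs, barely so for miR-218-5p (0.01), and the strongest values there are 0.56 for miR-132-3p and 0.53 for miR-9-5p.

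The library profiles nearest to those of the 3 most abundant neuronal miRNAs were sought among 416 other miRNAs of at least 10 CPM, by root mean square distance of centred log2 values over the 6 libraries. Nearest to miR-9-5p were miR-330-5p (distance 0.061) and miR-382-5p (0.078), against a median distance of 0.36. For miR-128-3p they were miR-541-5p (0.057) and miR-382-3p (0.062), against a median of 0.25. For miR-218-5p they were miR-466n-5p and miR-466d-5p (0.040 each, against a median of 0.25), a pair listed with the same values. These are the smallest of 416 distances in each case, so they lie below the median by construction. Whether the profiles share a cause was not tested.

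The opposite arms were then examined, to ask whether the balance of the 2 products of a hairpin differed after RSL3. The other arms of these hairpins gave 10 more entries, all tested, and 0 passed in limma, edgeR or DESeq2. DESeq2 gave 8 of these no adjusted p. At an unadjusted p under 0.05 there was 1 of the 10 in each tool, miR-212-5p, against 17.3% of all tested miRNAs in limma, 17% in edgeR and 14.3% in DESeq2. Their levels ran from 1.29 CPM (miR-137-5p) to 184 CPM (miR-132-5p) on average in RSL3 libraries, and from 1.32 CPM (miR-218-2-3p) to 168 CPM (miR-212-5p) in DMSO libraries.

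The miR-212 hairpin gave more 5p than 3p reads in all 6 libraries. The 5p arm had 141, 117 and 113 CPM in RSL3 libraries, against 164, 150 and 191 CPM in DMSO libraries. Every RSL3 library lay below every DMSO library. The mean was 123 ± 15.2 CPM in RSL3 and 168 ± 20.8 CPM in DMSO libraries (SD, n = 3 each), a log2 fold change of -0.44 ± 0.14 (SE), or 0.74-fold. The limma adjusted p was 0.11 (unadjusted 0.0074), and the adjusted p was 0.10 in edgeR and 0.056 in DESeq2, so it did not pass in any tool. Over all 18 settings tried, the adjusted p ran up to 0.41 and the unadjusted p did not exceed 0.040.

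The hairpins of miR-212 and miR-132 are printed with both mature arms in capitals, the 5p arm first, since their arms are compared here.
Mir212: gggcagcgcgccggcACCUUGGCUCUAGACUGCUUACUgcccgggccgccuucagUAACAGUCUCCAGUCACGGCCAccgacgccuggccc
Mir132: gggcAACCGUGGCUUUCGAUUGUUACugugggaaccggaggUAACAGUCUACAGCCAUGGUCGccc

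Although they lie on the same transcript and share the 3p seed, their more abundant arm differed in both groups, 5p for miR-212 and 3p for miR-132. The mean 5p level was 2.07 times the 3p level in RSL3 and 2.97 times in DMSO libraries for miR-212. For miR-132 the 3p level was 2.12 times the 5p level in RSL3 and 1.87 times in DMSO libraries. The 5p arm miR-132-5p had 163, 213 and 177 CPM in RSL3 libraries, against 178, 148 and 171 CPM in DMSO libraries, overlapping groups with a log2 fold change of 0.15 (limma adjusted p = 0.61). Of the 4 products of this transcript, only miR-212-5p had groups that did not overlap.

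**Figure D4:**
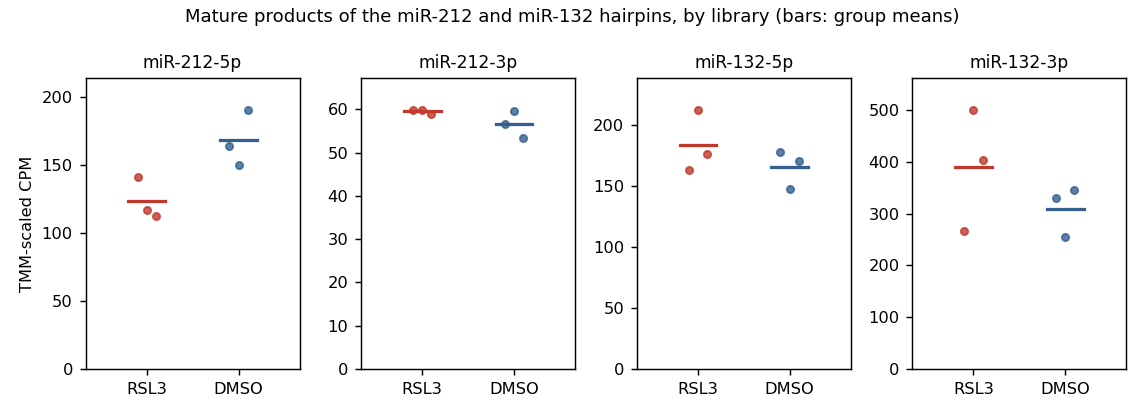
Levels of the 4 mature products of the miR-212 and miR-132 hairpins (TMM-scaled CPM, linear axes from 0, a different scale in each panel), RSL3 left of DMSO; points are libraries and bars are group means. The RSL3 libraries of miR-212-5p lie at 113 to 141 CPM, below the DMSO libraries at 150 to 191 CPM, while the groups of the other 3 products overlap.

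In the test of the arm ratio, log2((5p CPM + 1)/(3p CPM + 1)), 0 of the 11 precursors with a neuronal miRNA passed in limma over 219 precursors, of which 2.74% passed. A precursor here is a name that pairs a 5p with a 3p arm, and it can cover several loci. At an unadjusted p under 0.05 there was 1 toward 5p (miR-138-2) and 1 toward 3p (miR-212), against 20.5% of all precursors (8.22% toward 5p and 12.3% toward 3p). The groups did not overlap in 3 of 11 (miR-138-2 and miR-9 toward 5p, miR-212 toward 3p), against 23.7% (10.0% toward 5p and 13.7% toward 3p). The median change was -0.15, against -0.05 over all 219. The arm ratio was tested in limma alone.

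For miR-212 the log2 ratio was 1.22, 0.95 and 0.92 in RSL3 libraries, against 1.52, 1.31 and 1.82 in DMSO libraries. All RSL3 values were below all DMSO values. The change was -0.52 ± 0.20 (SE; limma adjusted p = 0.16). It was -0.38 without DMSO library 3 (adjusted p = 0.36), -0.46 without RSL3 library 3 (adjusted p = 0.41) and -0.64 without DMSO library 2 (adjusted p = 0.19). The miR-132 ratio also changed toward 3p, by -0.15 (limma adjusted p = 0.74), with overlapping groups. For miR-9 the log2 ratio was 4.81, 4.71 and 5.06 in RSL3 libraries, against 4.63, 4.40 and 4.33 in DMSO libraries, so all RSL3 values were higher. The change was 0.41 ± 0.19 (SE; limma adjusted p = 0.28), and it was 0.48 without RSL3 library 2. As libraries were left out in turn, it ran from 0.31 without RSL3 library 3 (adjusted p = 0.62) to 0.50 without DMSO library 1 (adjusted p = 0.25). For miR-138-2 the change was 0.70 ± 0.26 (SE; limma adjusted p = 0.16), but its 3p arm had only 3 to 19 reads per library. Without RSL3 library 2 it was 0.45, and with a pseudocount of 5 in place of 1 it was 0.37 (adjusted p = 0.24).

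In both groups the 8 other ratios overlapped, and the 5p arm dominated in the hairpins of miR-218 and miR-138 and in those of miR-9. In the miR-218 hairpins the 3p arms were at 1.32 to 2.89 CPM on average, against the 15095 and 18269 CPM of miR-218-5p in RSL3 and DMSO libraries. The shared arms of miR-128, miR-138 and miR-218 come from both of their loci, so a ratio for a single locus mixes them. The miR-9 ratio pools both arms of its 3 loci. In the hairpins of miR-124, miR-128-1, miR-137, miR-153 and miR-132 the 3p arm dominated. For miR-124 the log2 ratio averaged -4.60 ± 0.34 in RSL3 and -4.18 ± 0.20 in DMSO libraries (SD, n = 3 each), a change of -0.41 (limma adjusted p = 0.36), with 17 to 53 reads per library in the 5p arm.

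**Figure D5:**
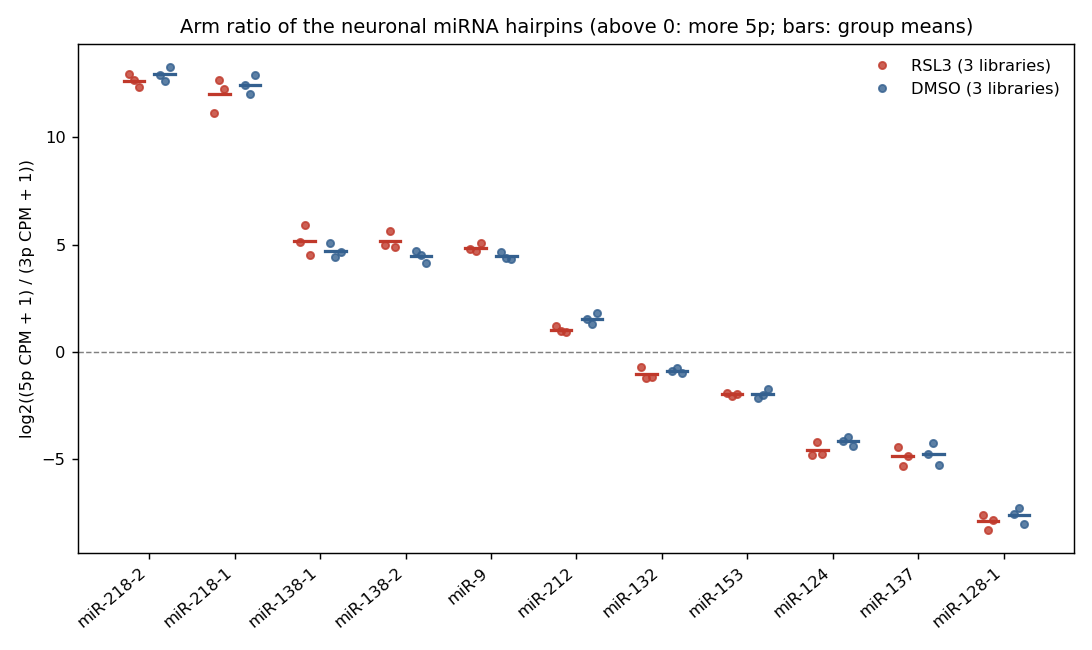
Log2 ratio of the 5p to the 3p arm, log2((5p CPM + 1)/(3p CPM + 1)), of 11 precursor names that hold a neuronal miRNA, with RSL3 libraries in red left of DMSO libraries in blue; points are libraries, bars are group means, and the dashed line marks equal arms. In RSL3 libraries the mean ratio spans from 12.66 in miR-218-2 to -7.92 in miR-128-1, and the groups do not overlap in miR-138-2, miR-212 and miR-9.

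A wider list of 39 other neuron- or brain-enriched miRNAs had 38 entries here, all tested, and 0 passed in limma, edgeR or DESeq2 (DESeq2 gave 16 no adjusted p). Before adjustment, 3 higher and 2 lower of the 38 were under 0.05 in limma, 5 in edgeR and 3 in DESeq2, against the same 17.3%, 17% and 14.3% of all tested. The log2 fold changes were positive in 23 and negative in 15, with a median of 0.12. Over all tested miRNAs 334 were positive and 332 negative, with a median of 0.0013. RSL3 library 2 was the highest of the 6 libraries for 20 of the 38, against 26.1% of all tested. The groups did not overlap in 4 of the 38, against the 24.3% given above. Its most abundant entries were miR-7a-5p, miR-7b-5p, miR-598-3p and miR-488-3p. Among these miR-598-3p, with 1282, 1182 and 1108 CPM in RSL3 libraries against 1320, 1461 and 1496 CPM in DMSO libraries, had groups that did not overlap (log2 fold change -0.26, limma adjusted p = 0.25). For miR-7a-5p the mean was 181728 ± 26834 CPM in RSL3 and 225023 ± 38694 CPM in DMSO libraries (SD, n = 3 each; limma adjusted p = 0.41). That exceeded the sum of the 10 neuronal miRNAs in every library. For miR-7b-5p the log2 fold change was -0.27 (adjusted p = 0.39), and for miR-488-3p it was -0.0056 (adjusted p = 0.99).

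Markers of other cell types were set beside the neuronal miRNAs as a check of the labelled cell type. The fibroblast, smooth muscle and endothelial list, all 8 listed, summed to 37024 to 38182 CPM in RSL3 and 36143 to 39390 CPM in DMSO libraries, above the 10 neuronal miRNAs in every library. Of that sum 93.0% to 94.2% was miR-143-3p, a miRNA of smooth muscle and fibroblasts. The wider neuronal list summed to 190274 to 246353 CPM in RSL3 and 221456 to 306769 CPM in DMSO libraries. That was above the fibroblast, smooth muscle and endothelial sum in every library, and 85.9% to 87.1% of it was miR-7a-5p. The epithelial list (4 of 7 listed, led by miR-203-3p) summed to 362 to 450 CPM in RSL3 and 398 to 462 CPM in DMSO libraries. The glial and microglial list (6 of 8, led by miR-219a-2-3p) summed to 173 to 223 CPM in RSL3 and 174 to 214 CPM in DMSO libraries. Muscle miRNAs (4 of 7, led by miR-1a-3p) summed to 123 to 186 CPM in RSL3 and 156 to 276 CPM in DMSO libraries. Blood and liver miRNAs (5 of 7, led by miR-451a) summed to 135 to 204 CPM in RSL3 and 119 to 155 CPM in DMSO libraries. Of 10 pluripotent stem cell miRNAs only miR-295-3p was listed, at 0.51 to 2.21 CPM in RSL3 and 0.22 to 1.57 CPM in DMSO libraries. In all these lists the groups overlapped. RSL3 library 2 had the highest glial and the highest blood and liver sum, and was highest for 8 of the 10 neuronal miRNAs. It had the lowest epithelial sum of the 6 libraries, 362 CPM. For the muscle, the pluripotent and the fibroblast, smooth muscle and endothelial lists it was not the highest. The part of these in the result was not tested.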

How the data were processed

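Small RNA libraries of 3 RSL3 and 3 DMSO-treated samples of N2a cells were analysed. Cutadapt, Bowtie, edgeR and the build GRCm38 are named, per the submitters' processing notes. The sources used here give no tool version, setting or miRNA release, nor how reads with several matching miRNAs were counted. In the deposited signal, named CPM by the authors, a value is mature miRNA reads divided by a library factor. Every value was a whole multiple of a step of 0.157 to 0.314 CPM per library. Dividing by that step gave whole reads for 100% of values within 0.01, and those reads with TMM factors recomputed from them gave the divisor, so depth is known. Reads of other RNAs were not used, and a shift in all miRNAs together would be scaled away.

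The main test was limma 3.58.1 (R 4.3.3) on log2(CPM + 1), two-sided, with the prior variance following mean level, for the 666 miRNAs that reached 1 CPM in at least 3 libraries. Fold changes on this scale understate those of low miRNAs. A fit of 219 arm ratios used the same filter for both arms. Adjustment was over all tested features at 0.05. On the recovered reads edgeR 4.0.16 (quasi-likelihood) called 6 miRNAs and DESeq2 1.42.0 called 40, with no adjusted p for 284. Plain CPM had been assumed when the tests were planned. The scripts were tested on simulated data, where limma recovered 47.8% of 1.5-fold and 80.3% of 2-fold changes. Smaller changes were not simulated. In the simulated arm ratios 7.94% of the calls were false. The miRNAs, lists, tests and naming rule were chosen with earlier results of these data known. The naming rule takes the 10 miRNAs and their opposite arms, listed neuronal miRNAs that were called and the 4 most abundant, the most abundant of each other list, and the 2 nearest profiles of the 3 most abundant. Alternatives were other tools, pseudocounts, filters, scalings, variance models, a replicate block and leaving out each library. Host genes are from GENCODE M21.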

Additional observations from a re-analysis of the deposited data

How the results depend on the processing

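The 10 neuronal miRNAs were tested under all 17 alternatives and 0 passed (smallest adjusted p 0.071, without RSL3 library 1). Of the 38 others of the neuronal list 0 passed (smallest 0.068), but only 28 were tested at a minimum of 10 CPM and DESeq2 gave 16 no adjusted p. Of the 11 arm ratios 0 passed under 11 alternatives, but only 3 were tested at 10 CPM, where the smallest adjusted p of 0.072 arose (miR-212). The median log2 fold change of the 10 stayed between 0.05 and 0.13. The lowest came after rescaling without the 5 most abundant miRNAs, where the median over all tested miRNAs was -0.048. The highest came with median centring, where that median was 0.038. Same-numbered libraries of the groups did not deviate together (correlations of -0.35, -0.33 and -0.19), so the numbers are not taken as pairs. With the replicate number as a block, 0 of the 10 passed (smallest adjusted p of 0.54), and 0 arm ratios (0.19). A sign turned only where the value was near 0. For miR-9-3p, at -0.02, the log2 fold change was 0.015 in edgeR, 0.016 in DESeq2, 0.021 with median centring and 0.0040 with quantile normalization, and -0.26 to 0.12 across the 6 fits that each omit a library. The arm ratio change of miR-137 (-0.11) was 0.079 with a pseudocount of 5 and ran from -0.36 to 0.14 across such fits, and that of miR-153 (-0.02) from -0.12 to 0.089. The cause was not tested. The difference in the miR-132-3p to miR-212-3p ratio ran from 0.03 to 0.48 across them. Counting error limits the arms with 20 or fewer reads in at least 1 library: miR-124-5p, miR-137-5p, miR-138-1-3p, miR-138-2-3p, miR-153-5p, miR-218-1-3p and miR-218-2-3p.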
